A study of Drosophila melanogaster with 24 samples.

Results

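The genes of 10 glycolytic enzymes were followed through RNA immunoprecipitation sequencing (RIP-seq) of fly heads. They were chosen by symbol, as Hex-A, Pgi, Pfk, Tpi, Gapdh1, Gapdh2, Pgk, Pglym78, Eno and PyK, and are 10 of 17753 genes in the count tables and 10 of the 6147 genes with enough counts to be tested. In RIP-seq a tagged protein is pulled from a lysate with an antibody and the RNA recovered with it is sequenced. Adult female Drosophila melanogaster of 3 genotypes were compared: elav>Nab2-FLAG, elav>Atx2-3xFLAG and the control elav>Gal4, which carried the GAL4 driver without a tagged protein. Both proteins bind RNA, and the stated purpose was to find the RNAs that associate with either one in neurons of the brain. The GAL4 driver is expressed under elav, a gene of neurons, so the tagged proteins were driven in neurons while the RNA came from whole heads. Each genotype had 4 biological replicates, each a formaldehyde-fixed lysate of 300 pooled heads. Of each lysate, 80% went to anti-FLAG immunoprecipitation (RIP) and 20% was kept as Input, which gave 24 libraries in 6 groups of 4.

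Glycolysis splits glucose into pyruvate in the cytosol and yields ATP and NADH. Its early steps phosphorylate and cleave the sugar, and its later steps recover ATP from the triose phosphates. In the fly brain, glia are known to run much of the glycolysis and to pass its products to neurons, and flight muscle and fat body also use these enzymes heavily. A level in a whole-head library therefore adds up many cell types.

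Library totals lay between 220894 and 2109561 counts in the RIP libraries and between 511415 and 1091678 counts in the Input libraries. The shallowest libraries were replicate 3 of control RIP and replicate 3 of Nab2-FLAG RIP, where the least counted glycolytic genes had 24 and 31 reads. Levels are given in CPM, counts scaled to library size after TMM normalization and not corrected for gene length, so they are compared between groups and not between genes. Nab2 itself averaged 122 ± 29.1 CPM in Nab2-FLAG Input and 24.6 ± 4.58 CPM in control Input, and Atx2 averaged 275 ± 19.0 CPM in Atx2-3xFLAG Input and 257 ± 22.9 CPM in control Input (SD, n = 4 each). Every one of 12 neuron and 11 photoreceptor markers had counts in each of the 6 groups.

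In Input, 5 of the 10 glycolytic genes were called higher in Nab2-FLAG heads than in control heads, and the other 5 missed the threshold. The differences were positive for all 10 genes, with a median log2 difference of 0.37, against -0.02 over all 6147 genes tested. Those of Hex-A, Pgi, Gapdh1, Pgk and Pglym78 passed the test, all higher in Nab2-FLAG, by 1.32-fold to 1.53-fold (edgeR's quasi-likelihood test, Benjamini-Hochberg adjusted p below 0.05). Over all genes 12.2% were called, 452 higher and 298 lower. The count of glycolytic genes called was 2 without Nab2-FLAG replicate 3 or control replicate 3, 3 without control replicate 2, 3 with DESeq2 and 8 with scaling by library size alone. Under that scaling the split over all genes was 663 higher and 107 lower. The median of all genes moved to 0.16, and the glycolytic median stood 0.39 above it. Over all genes, 387 were called higher and 252 lower without Nab2-FLAG replicate 3. Without control replicate 3 the calls were 383 and 241, without control replicate 2 345 and 254, and with DESeq2 330 and 200. The 10 genes summed to 4075 ± 283 CPM in Nab2-FLAG Input, to 3215 ± 272 CPM in Atx2-3xFLAG Input and to 3299 ± 192 CPM in control Input (SD, n = 4 each). In bulk heads, more RNA per cell and more cells of a type that expresses a gene cannot be told apart.

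**Figure D1:**
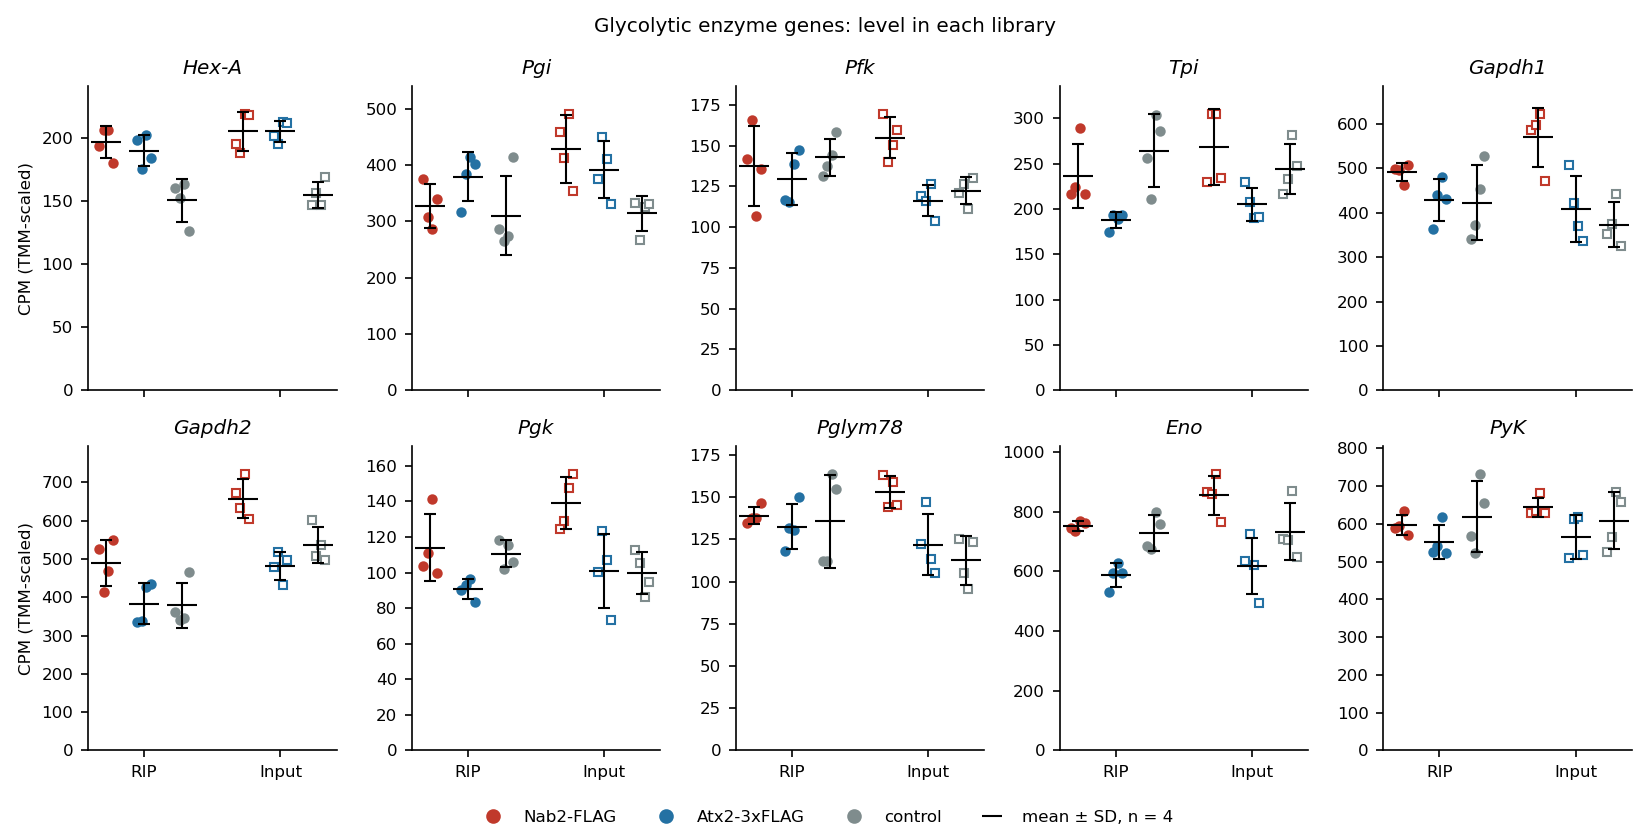
Level of each glycolytic gene in each library, in TMM-scaled CPM on a linear axis from 0. Filled circles are RIP and open squares are Input libraries of Nab2-FLAG (red), Atx2-3xFLAG (blue) and control (grey), and black bars are the mean ± SD of 4 libraries. In Input, every Nab2-FLAG library lies above every control library for 7 of the 10 genes; 14.9% of all genes tested were separated in either direction.

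The preparatory steps begin with Hex-A (FBgn0001186, X:9585675-9589813 in Release 6), the hexokinase that phosphorylates glucose. Its Input levels were 196, 188, 219 and 218 CPM for Nab2-FLAG, 201, 195, 213 and 212 CPM for Atx2-3xFLAG, and 147, 156.2, 147 and 169 CPM for control. Each tagged library lay above each control library, and the tagged genotypes overlapped. The log2 difference from control was 0.40 ± 0.12 (SE) in Nab2-FLAG, with an edgeR adjusted p of 0.0188, and 0.41 ± 0.12 in Atx2-3xFLAG, with an adjusted p of 0.0118. The difference between the tagged genotypes was -0.01, with a 95% interval of -0.24 to 0.22. Leaving out 1 library at a time, the Nab2-FLAG call was lost without Nab2-FLAG replicate 3 (adjusted p = 0.0686) or 4 (0.0516) and without control replicate 1 (0.0727) or 3 (0.0527), and the Atx2-3xFLAG call without control replicate 1 (0.0506).

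Pgi (FBgn0003074, chromosome arm 2R) encodes the isomerase that turns glucose 6-phosphate into fructose 6-phosphate. It had 458, 413, 492 and 353 CPM in Nab2-FLAG Input, 375, 449, 411 and 332 CPM in Atx2-3xFLAG Input and 333, 268, 327 and 330.4 CPM in control Input. The Nab2-FLAG values all lay above control, whereas those of Atx2-3xFLAG overlapped it at one library. Its log2 difference from control was 0.45 ± 0.12 (SE) in Nab2-FLAG, with an edgeR adjusted p of 0.00503. In Atx2-3xFLAG it was 0.31 ± 0.12, and the adjusted p of 0.0569 missed the threshold. Without Atx2-3xFLAG replicate 4 that p was 0.0204, without control replicate 4 it was 0.0391, without the expression filter 0.0394 and under library-size scaling 0.00106.

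Pfk (FBgn0003071, 2R), phosphofructokinase, catalyses the committed step of the pathway. Its levels were 169.7, 140.2, 151 and 159 CPM in Nab2-FLAG Input, 119, 116, 127 and 104 CPM in Atx2-3xFLAG Input, and 121, 127, 111 and 130.4 CPM in control Input. All 4 Nab2-FLAG libraries were above all others, but neither test passed: the log2 difference was 0.33 ± 0.13 (SE) from control and 0.41 ± 0.13 from Atx2-3xFLAG, with edgeR adjusted p of 0.0927 and 0.0567. Under library-size scaling the difference from control passed (0.0230).

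Tpi (FBgn0086355, 3R:30132981-30134599) interconverts the pair of triose phosphates. It had 230.4, 304, 305 and 234 CPM in Nab2-FLAG Input, 230.1, 208, 190.3 and 192 CPM in Atx2-3xFLAG Input, and 216, 234, 282 and 247 CPM in control Input. The Nab2-FLAG libraries fell into 2 high and 2 lower ones that overlapped control, and its lowest barely exceeded the highest of Atx2-3xFLAG. The log2 difference between Nab2-FLAG and Atx2-3xFLAG was 0.39 ± 0.12 (SE), with an edgeR adjusted p of 0.0428. That call was lost without Nab2-FLAG replicate 2 (0.241) or 3 (0.208), without Atx2-3xFLAG replicate 2 (0.0841), 3 (0.146) or 4 (0.109), with DESeq2 (0.121), under library-size scaling (0.228), without the expression filter (0.0673) and with RLE size factors (0.0502).

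Glyceraldehyde 3-phosphate dehydrogenase, the step that makes NADH, is encoded by Gapdh1 (FBgn0001091, 2R) and Gapdh2 (FBgn0001092, X:15868145-15869661). Gapdh1 had 587, 597, 624 and 472 CPM in Nab2-FLAG Input, 507, 422, 370.3 and 336 CPM in Atx2-3xFLAG Input, and 352, 374, 442 and 325 CPM in control Input. Nab2-FLAG stood clear of control, while its lowest library fell below the highest of Atx2-3xFLAG. Gapdh1 had the largest difference from control among the 10 genes, 0.62 ± 0.12 on the log2 scale (SE, 1.53-fold), with an edgeR adjusted p of 0.000187. Its log2 difference from Atx2-3xFLAG was 0.48 ± 0.12, with an adjusted p of 0.00747, and that call was lost without Nab2-FLAG replicate 2 (0.0515) or Atx2-3xFLAG replicate 3 (0.0536).

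Gapdh2 had 672, 633, 722 and 604 CPM in Nab2-FLAG Input, 480.0, 518, 432 and 497 CPM in Atx2-3xFLAG Input, and 603, 507, 538 and 498 CPM in control Input. Nab2-FLAG was above both other genotypes in every library, by a narrow margin over control replicate 1. The difference from Atx2-3xFLAG passed the test (log2 0.45 ± 0.10 SE, edgeR adjusted p = 0.00404), and that from control did not (0.29 ± 0.10, adjusted p = 0.0563). Without control replicate 1 the difference from control was 0.35 with an adjusted p of 0.0452, without Nab2-FLAG replicate 4 it was 0.33 with 0.0417, and under library-size scaling it was 0.48 with 0.00224. The paralogs are close in sequence, and how reads that match both were counted is not given in the sources used here. Their sum was 1228 ± 113 CPM in Nab2-FLAG Input, 890.2 ± 87.3 CPM in Atx2-3xFLAG Input and 909.9 ± 71.2 CPM in control Input (SD, n = 4 each). Of the counts of the pair in Input, Gapdh1 made up 46.3% ± 1.91 for Nab2-FLAG, 45.7% ± 4.54 for Atx2-3xFLAG and 41.0% ± 3.58 for control.

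In the later steps, Pgk (FBgn0250906, 2L:2746880-2753068), phosphoglycerate kinase, makes the first ATP. It had 125, 129, 148 and 155 CPM in Nab2-FLAG Input, 100.2, 123, 107 and 73.2 CPM in Atx2-3xFLAG Input, and 113, 105, 86.0 and 94.9 CPM in control Input. Nab2-FLAG was above both other genotypes throughout. The log2 difference from control was 0.46 ± 0.15 (SE, edgeR adjusted p = 0.0315), and that from Atx2-3xFLAG was 0.46 ± 0.14, with an adjusted p of 0.0532 (0.0309 without Atx2-3xFLAG replicate 2). The call against control was lost with DESeq2 (0.0851) and without Nab2-FLAG replicate 3 (0.0866) or 4 (0.0904) or control replicate 2 (0.0554), 3 (0.106) or 4 (0.0599). The annotated span of Pgk overlaps Cwc25 and Bacc, the second with a median of 170.5 counts per library, and whether counting used the strand is not given in the sources used here.

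Pglym78 (FBgn0014869, 3R:29148248-29149901), phosphoglycerate mutase, moves the phosphate to the neighbouring carbon. It had 163, 144, 159 and 145 CPM in Nab2-FLAG Input, 122, 147, 113 and 105 CPM in Atx2-3xFLAG Input, and 125, 105, 95.8 and 124 CPM in control Input. Nab2-FLAG was above control in every library and overlapped Atx2-3xFLAG at its replicate 2. The log2 difference from control was 0.44 ± 0.14 (SE, edgeR adjusted p = 0.0259). It missed the threshold with DESeq2 (0.0708) and without Nab2-FLAG replicate 1 (0.0891) or 3 (0.0653) or control replicate 2 (0.0920) or 3 (0.0991). Pglym78 overlaps eIF2D in the annotation, and its paralog Pglym87 did not have enough counts to be tested.

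Eno (FBgn0000579, 2L:1724768-1729636), enolase, had 865, 858, 926 and 765 CPM in Nab2-FLAG Input, 634, 724, 620.3 and 494 CPM in Atx2-3xFLAG Input, and 708, 705, 868 and 649 CPM in control Input. The tagged genotypes did not overlap each other, and control lay between them and overlapped both. The log2 difference between Nab2-FLAG and Atx2-3xFLAG was 0.47 ± 0.11 (SE, edgeR adjusted p = 0.00517). Neither tagged genotype passed against control, with 0.22 ± 0.11 in Nab2-FLAG (adjusted p = 0.215, or 0.00850 under library-size scaling) and -0.25 ± 0.11 in Atx2-3xFLAG (0.132). Eno overlaps Rrp40, whose highest count in any library was 7.

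PyK (FBgn0267385, 3R:22367536-22372746), pyruvate kinase, closes the pathway. It had 629, 634, 681 and 629.9 CPM in Nab2-FLAG Input, 511, 613, 619 and 517 CPM in Atx2-3xFLAG Input, and 525, 566, 684 and 657 CPM in control Input. Nab2-FLAG overlapped control and lay just above Atx2-3xFLAG. Its log2 difference from control, 0.08 in Nab2-FLAG with a 95% interval of -0.13 to 0.30, was the smallest of the 10.

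Against Atx2-3xFLAG heads, Nab2-FLAG heads had positive differences for 9 of the 10 genes in Input, with a median log2 difference of 0.40. Every Nab2-FLAG library lay above every Atx2-3xFLAG library for 6 of the 10, while 9.68% of all genes were separated in either direction. Tpi, Gapdh1, Gapdh2 and Eno passed the edgeR test, 4 of 10, all higher in Nab2-FLAG, where 4.26% of all genes were called, 161 higher and 101 lower. With library-size scaling the split over all genes was 87 higher and 91 lower, and 3 of the 10 glycolytic genes were called. Without Nab2-FLAG replicate 2 or Atx2-3xFLAG replicate 3 the count was 2. Over all genes the calls there were 100 higher and 57 lower, and 116 and 70. Atx2-3xFLAG against control gave 1 call of 10, Hex-A, against 16.5% of all genes, 548 higher and 469 lower (1043 and 169 with library-size scaling, which moved the median of all genes to 0.24). The glycolytic median there was -0.04, and it turned to 0.21 under library-size scaling, 0.03 below the median of all genes, and to 0.05 without Atx2-3xFLAG replicate 4. The Hex-A call was lost without control replicate 1, where 411 genes were called higher and 330 lower over all genes. Under library-size scaling 3 glycolytic genes were called. The comparisons of the tagged genotypes with control share the control libraries.

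**Figure D2:**
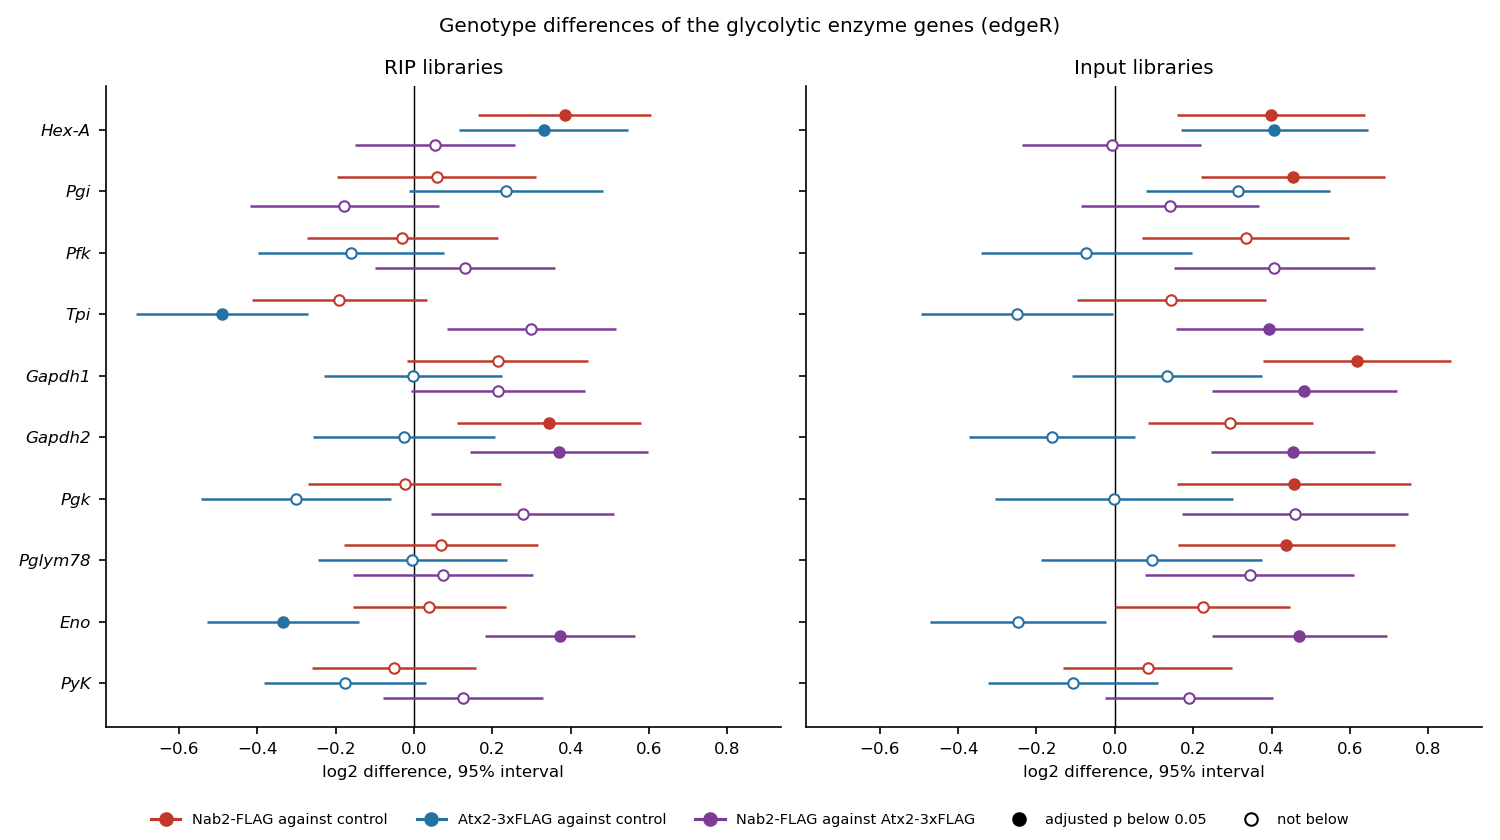
Log2 difference of each glycolytic gene between genotypes, in RIP (left) and Input (right), with 95% intervals from edgeR. Filled points have an adjusted p below 0.05 over all tested genes. In Input the Nab2-FLAG differences from control (red) are all above 0, while those of Atx2-3xFLAG (blue) spread to both sides.

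Markers of other cell types also differed between the genotypes. Of 12 muscle markers, 10 were tested, and in Input 9 of them rose in Nab2-FLAG and 8 in Atx2-3xFLAG, relative to control. The muscle list summed to 6240 to 7976 CPM in Nab2-FLAG Input, 6116 to 6788 CPM in Atx2-3xFLAG Input and 3393 to 4542 CPM in control Input. The muscle markers not tested were fln and Act88F. In Input, fln was at 0 counts in all 3 groups. Act88F had 18 counts in Nab2-FLAG, 20 in Atx2-3xFLAG and 4 in control Input, each summed over the libraries of the group. Among 8 fat body markers, of which 7 were tested, 2 were higher in Nab2-FLAG than in control Input, 1 was higher and 4 lower in Atx2-3xFLAG than in control Input, and 5 were higher and none lower in Nab2-FLAG than in Atx2-3xFLAG Input. The fat body sums ran from 101713 to 124572 CPM in Nab2-FLAG Input, from 72534 to 80223 CPM in Atx2-3xFLAG Input and from 109553 to 147026 CPM in control Input. Of 10 glial markers, 3 were higher in Nab2-FLAG and 1 in Atx2-3xFLAG than in control Input, and their sums were 2029.8 to 2091 CPM in Nab2-FLAG, 1700.0 to 1819 CPM in Atx2-3xFLAG and 1387 to 1728 CPM in control Input. Of 12 neuron markers, 1 was higher and 1 lower in Nab2-FLAG Input, with sums of 4263 to 4671 CPM, and 8 were higher in Atx2-3xFLAG Input, with 4908 to 6054 CPM, against 3942 to 4684 CPM in control Input. Of 11 photoreceptor markers, 2 were higher and 5 lower in each tagged Input, with sums of 56658 to 69231 CPM in Nab2-FLAG and 56342 to 67752 CPM in Atx2-3xFLAG against 80544 to 113557 CPM in control. The part of these differences in the glycolytic results was not tested.

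In the immunoprecipitates, Hex-A was again higher in both tagged genotypes than in control. Nab2-FLAG RIP against control RIP gave 2 calls of 10, Hex-A and Gapdh2, both higher, while 20% of all genes were called, 656 higher and 571 lower (979 and 270 with library-size scaling). The glycolytic median was 0.05. Atx2-3xFLAG RIP against control RIP gave 3 calls, Hex-A higher and Tpi and Eno lower, while 24.1% of all genes were called, 741 in each direction (1338 higher and 297 lower with library-size scaling). Nab2-FLAG against Atx2-3xFLAG RIP gave 2 calls, Gapdh2 and Eno, both higher, at 4.34% of all genes, 150 higher and 117 lower (93 and 135 with library-size scaling, under which no glycolytic gene was called). Summed over the 10 genes, levels were 3482 ± 59.9 CPM in Nab2-FLAG RIP, 3060 ± 234 CPM in Atx2-3xFLAG RIP and 3265 ± 367 CPM in control RIP (SD, n = 4 each). Without Nab2-FLAG replicate 1 or 4 no glycolytic gene was called between Nab2-FLAG and Atx2-3xFLAG RIP. Over all genes the calls there were 86 higher and 52 lower, and 85 and 92.

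Markers of other cell types moved in RIP as well. Of the 7 fat body markers tested, 7 were higher in Nab2-FLAG RIP than in Atx2-3xFLAG RIP. Against control RIP, 1 was higher and 5 lower in Atx2-3xFLAG, and 2 were higher and 2 lower in Nab2-FLAG. The fat body list summed to 91551 to 95896 CPM in Nab2-FLAG RIP, 56196 to 75478 CPM in Atx2-3xFLAG RIP and 88394 to 123040 CPM in control RIP. Gapdh2 and Eno between the tagged genotypes, and Tpi and Eno in Atx2-3xFLAG against control, had the direction of most fat body markers called there. Hex-A, higher in Atx2-3xFLAG RIP than in control RIP, had the opposite direction, which was that of the neuron and muscle markers called there. In Nab2-FLAG against control RIP, where Hex-A and Gapdh2 were higher, the fat body calls were split evenly. The muscle markers gave 10 of 10 tested higher in Nab2-FLAG and 8 of 10 in Atx2-3xFLAG than in control RIP, and none between the tagged genotypes, with sums of 7057 to 9022 CPM in Nab2-FLAG, 6316 to 7612 CPM in Atx2-3xFLAG and 4072 to 5078 CPM in control RIP. Of 12 neuron markers, 4 were higher and 1 lower in Nab2-FLAG RIP and 9 were higher in Atx2-3xFLAG RIP than in control RIP, and 2 were lower in Nab2-FLAG than in Atx2-3xFLAG RIP. Of 11 photoreceptor markers, 2 were higher and 6 lower in Nab2-FLAG RIP and 2 higher and 5 lower in Atx2-3xFLAG RIP. Of 10 glial markers, 3 were higher and 1 lower in each tagged RIP than in control RIP, and 1 was higher in Nab2-FLAG than in Atx2-3xFLAG RIP. Several lists had a direction in these comparisons, so a shared direction does not single out a cell type. The part of these differences in the glycolytic calls was not tested.

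Hex-A had 193, 206, 207 and 180.0 CPM in Nab2-FLAG RIP, 199, 175, 202 and 184 CPM in Atx2-3xFLAG RIP, and 160.4, 152, 164 and 126 CPM in control RIP. As in Input, the tagged libraries all lay above control. Of all genes tested, 18.6% were separated from control in Nab2-FLAG RIP and 22.9% in Atx2-3xFLAG RIP, in either direction. The log2 difference from control was 0.38 ± 0.11 (SE, edgeR adjusted p = 0.00941) in Nab2-FLAG and 0.33 ± 0.11 (0.0195) in Atx2-3xFLAG. The Atx2-3xFLAG call was lost without control replicate 4 (0.0916) or Atx2-3xFLAG replicate 3 (0.0620).

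Tpi had 217, 224, 289 and 216 CPM in Nab2-FLAG RIP, 175, 193, 189 and 194 CPM in Atx2-3xFLAG RIP, and 256, 211, 303 and 287 CPM in control RIP. The Atx2-3xFLAG libraries were below all others. Of all genes tested, 22.9% were separated in either direction between Atx2-3xFLAG and control RIP, and 11.1% between the tagged genotypes. For Tpi the log2 difference of Atx2-3xFLAG from control was -0.49 ± 0.11 (SE, edgeR adjusted p = 0.000654). It was -0.26 with an adjusted p of 0.0773 under library-size scaling. Eno had 743, 735, 768 and 762 CPM in Nab2-FLAG RIP, 531, 593, 627 and 594 CPM in Atx2-3xFLAG RIP, and 684, 674, 799.7 and 757 CPM in control RIP. Again Atx2-3xFLAG was lowest in every library, while Nab2-FLAG and control overlapped. Eno differed from control by -0.33 ± 0.10 in Atx2-3xFLAG (adjusted p = 0.00859, or -0.10 and 0.495 under library-size scaling). Between Nab2-FLAG and Atx2-3xFLAG it differed by 0.37 ± 0.09 (0.0135), a call lost without Nab2-FLAG replicate 1 (0.0508) or 4 (0.0507) and under library-size scaling (0.0567).

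Gapdh2 had 525, 415, 469 and 550.3 CPM in Nab2-FLAG RIP, 335, 338, 428 and 434 CPM in Atx2-3xFLAG RIP, and 363, 340.3, 347 and 467 CPM in control RIP. Nab2-FLAG was the highest group on average but overlapped both others. Its log2 difference was 0.34 ± 0.12 (SE, edgeR adjusted p = 0.0305) from control and 0.37 ± 0.11 (0.0478) from Atx2-3xFLAG. The call against control was lost with DESeq2 (0.0648), without the lysates of the 2 shallowest RIP libraries (0.0676) and without Nab2-FLAG replicate 1 (0.0811) or 4 (0.108) or control replicate 1 (0.0781) or 2 (0.106). That against Atx2-3xFLAG was lost with DESeq2 (0.139), RLE size factors (0.0595) and library-size scaling (0.116), without those shallow lysates (0.0942) and without any of Nab2-FLAG replicates 1 (0.196), 3 (0.0707) and 4 (0.228) and Atx2-3xFLAG replicates 1 (0.148), 2 (0.218) and 3 (0.0531). Library-size scaling called Pgi in Atx2-3xFLAG RIP (0.00188) and Gapdh1 in Nab2-FLAG RIP (0.00959) against control. With TMM scaling, both were also called when control replicate 4 was left out. Pgi in Atx2-3xFLAG RIP then had a log2 difference of 0.46 from control (edgeR adjusted p = 0.00248, against 0.24 and 0.168 with that library). Gapdh1 in Nab2-FLAG RIP had one of 0.40 (0.0110, against 0.21 and 0.197).

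Whether an RNA came down with a tagged protein was asked with the log2 difference of RIP from Input in that genotype, less the same quantity in control, here called the association. No glycolytic gene passed the edgeR test of association with Nab2-FLAG, where 0.0976% of all genes were called and 440 genes had an unadjusted p below 0.05, or with Atx2-3xFLAG, where 0.0488% were called and 340 genes had such a p. Among the 10 genes, 4 had an unadjusted p below 0.05 for Nab2-FLAG and 0 for Atx2-3xFLAG. The 4 were Pgi, Pfk, Tpi and Pgk, all with an association below 0, the direction of less recovery than in control. DESeq2 also called 0 of the 10 for either protein. Between Nab2-FLAG and Atx2-3xFLAG associations, 0% of all genes were called (224 with an unadjusted p below 0.05, and 0 with DESeq2), none of the glycolytic genes among them.

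The associations with Nab2-FLAG were below 0 for 8 of the 10 genes, with a median of -0.31 on the log2 scale against 0.01 over all genes tested. They reached from -0.42 ± 0.18 (SE) for Pgk to 0.07 ± 0.14 for Gapdh2. Input is subtracted in an association, so a higher Input level lowers it. Over the 10 genes, the median log2 difference of Nab2-FLAG from control was 0.37 in Input and 0.05 in RIP. The associations use the same Input libraries, so they are not independent of the Input differences. Single genes varied: the differences from control were 0.45 in Input and 0.06 in RIP for Pgi. For Tpi they were 0.14 in Input and -0.19 in RIP. What part Input had in each association was not tested. For Atx2-3xFLAG the median association was -0.05 against 0.02 over all genes, and the range ran from -0.24 ± 0.18 for Pgk to 0.17 ± 0.14 for Gapdh2. The median for Nab2-FLAG was -0.34 under library-size scaling, -0.23 without the lysates of the shallowest RIP libraries and -0.20 without control replicate 4. Leaving out 1 lysate at a time, it ran from -0.35 to -0.20 for Nab2-FLAG. For Atx2-3xFLAG it ran from -0.17, without Atx2-3xFLAG replicate 4, to -0.0015, without control replicate 4. Pgk showed the clearest separation by lysate, with log2 ratios of RIP to Input of -0.26, -0.21, -0.06 and -0.63 in Nab2-FLAG lysates, -0.15, -0.40, -0.15 and 0.18 in Atx2-3xFLAG lysates, and 0.07, -0.04, 0.42 and 0.16 in control lysates. All Nab2-FLAG ratios of Pgk lay below all control ratios, which no other of the 10 genes showed, and 4.2% of all genes were so separated in either direction. The unadjusted p of Pgk was 0.0233 and its adjusted p was 0.584. The upper 95% bound of the Nab2-FLAG association was highest for Gapdh2, at 0.35.

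**Figure D3:**
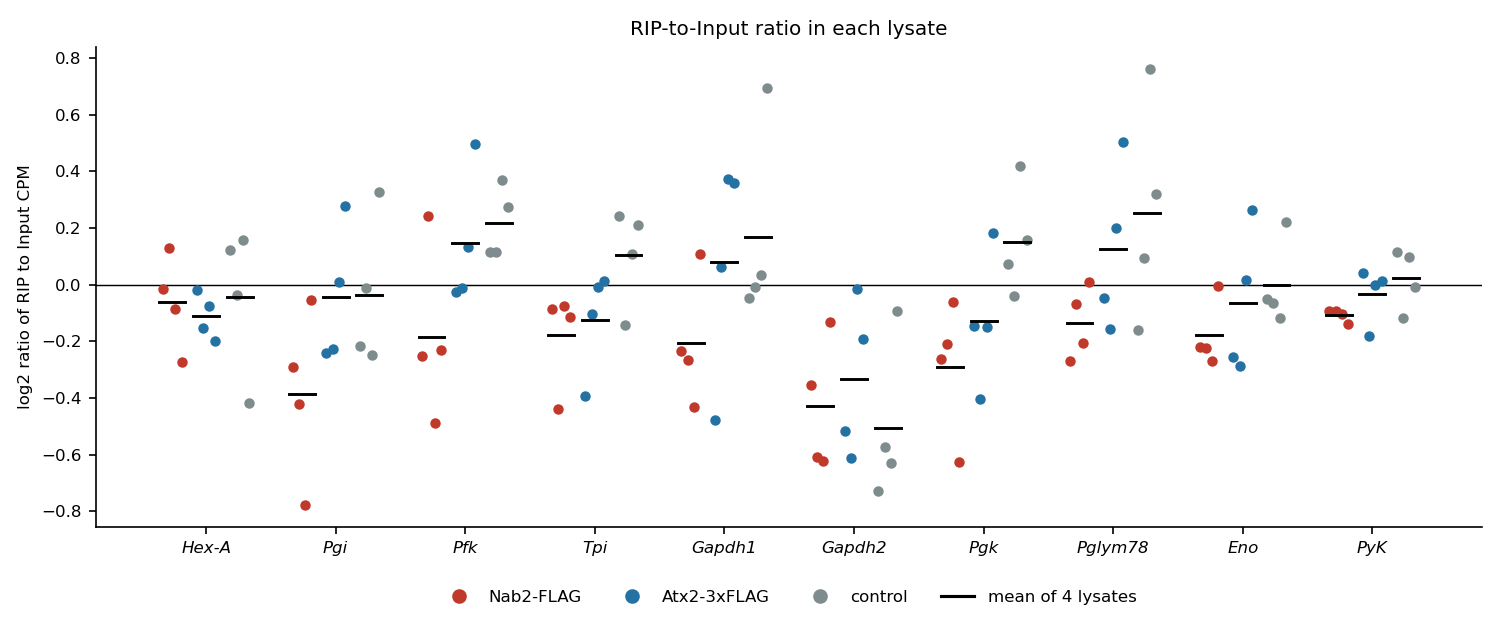
Log2 ratio of RIP to Input CPM for each glycolytic gene in each lysate (points), with the mean of 4 lysates per genotype (black bars). Gapdh2 lies below 0 in all 12 lysates, and the Nab2-FLAG means lie below the control means for 9 of the 10 genes.

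Gapdh2 RNA was lower in RIP than in Input in each genotype, control included. Its log2 ratios were -0.36, -0.61, -0.62 and -0.13 in Nab2-FLAG lysates, -0.52, -0.61, -0.01 and -0.19 in Atx2-3xFLAG lysates, and -0.73, -0.57, -0.63 and -0.09 in control lysates. All 12 were below 0, one of them by very little, and the genotypes overlapped. The fitted log2 differences of RIP from Input were -0.42 ± 0.09 (SE, edgeR adjusted p = 0.00244) in Nab2-FLAG, -0.33 ± 0.09 (0.0223) in Atx2-3xFLAG and -0.50 ± 0.10 (0.000718) in control. The Nab2-FLAG call was lost without its replicate 2 (0.0542) and without the lysates of the shallowest RIP libraries (0.0801). The Atx2-3xFLAG call was lost without its replicate 1 (0.125) or 2 (0.218), with DESeq2 (0.0689) and with RIP and Input unpaired (0.0811). All 3 calls, that of control included, were lost under library-size scaling. They were also lost with a block for the replicate number on log2 ratios (0.199 in Nab2-FLAG, 0.349 in Atx2-3xFLAG and 0.120 in control). Over all genes that block called 0 in Nab2-FLAG, 0 in Atx2-3xFLAG, and 5 higher and 24 lower in control. Gapdh1 did not share this pattern, with fitted differences of -0.20 in Nab2-FLAG, 0.09 in Atx2-3xFLAG and 0.18 in control, none past the test.

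Pgi was also lower in RIP than in Input in Nab2-FLAG, with log2 ratios of -0.29, -0.42, -0.78 and -0.05 and a fitted difference of -0.36 ± 0.09 (edgeR adjusted p = 0.00842). In Atx2-3xFLAG its ratios were -0.24, -0.23, 0.01 and 0.28, and in control they were -0.22, -0.01, -0.25 and 0.33. The Nab2-FLAG call was lost without its replicate 1 (0.0518), 2 (0.0820) or 3 (0.130) and without the lysates of the shallowest RIP libraries (0.150). It was also lost with RIP and Input unpaired (0.0580) and with the block (0.182), which called 0 of all genes in Nab2-FLAG. The difference between Nab2-FLAG and Atx2-3xFLAG in this ratio, -0.32 with an unadjusted p of 0.0176, had an adjusted p of 1. In all, RIP against Input called 2 of 10 glycolytic genes in Nab2-FLAG (7.82% of all genes), 1 in Atx2-3xFLAG (7.76%) and 1 in control (7.43%), all lower in RIP. Over all genes RIP was higher for 210 and lower for 271 in Nab2-FLAG, and library-size scaling made this 1787 and 22. In Atx2-3xFLAG it was higher for 246 and lower for 231, against 2066 and 25 with that scaling, and in control higher for 185 and lower for 272, against 1931 and 45. That scaling moved the median of all genes to 0.37 in Nab2-FLAG, 0.37 in Atx2-3xFLAG and 0.39 in control, and the fitted Gapdh2 differences to -0.04 in Nab2-FLAG, 0.05 in Atx2-3xFLAG and -0.09 in control. Since RIP and Input were sequenced as separate pools, a direction between them holds relative to the other genes only.

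The authors' deposited table, which sets the percent input of either tagged genotype over that of control, lists all 10 glycolytic genes. In the authors' deposited table the Nab2-FLAG ratio was below 1 for 9 of the 10, with a median of 0.805, while 49.4% of the 5760 genes listed were below 1. For Atx2-3xFLAG the authors' deposited table also has 9 of 10 below 1, with a median of 0.946, while 49.7% of all genes listed were below 1. Pgk had the lowest Nab2-FLAG ratio, 0.734, and the only Dunnett p below 0.05 among the 10 in the authors' deposited table, 0.036, a limit that 4.3% of all its genes passed for Nab2-FLAG. The authors' analysis of variance over the 3 genotypes gave Pgk a p of 0.0525, above that limit. Gapdh2 was the gene above 1 for both proteins in the authors' deposited table, at 1.05 for Nab2-FLAG and 1.12 for Atx2-3xFLAG. Percent input relates RIP to Input, so these ratios also depend on the Input levels. The median log2 difference of the 10 genes from control in Input was 0.37 in Nab2-FLAG and -0.04 in Atx2-3xFLAG. What part Input had in the ratios was not tested.

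The pathways that feed and drain glycolysis were described with 60 further genes, of which 51 could be tested. Beside the counts below, the shares called over all genes in Input were 12.2% in Nab2-FLAG and 16.5% in Atx2-3xFLAG against control. Between the tagged genotypes the share was 4.26%. In the list of sugar uptake, trehalose and glycogen genes, 4 of 9 tested were higher and 1 lower in Nab2-FLAG Input than in control Input, and 4 were higher and 1 lower in Atx2-3xFLAG Input. The same 4 genes rose in both genotypes. UGP, which makes the UDP-glucose used for glycogen, had log2 differences of 0.98 ± 0.13 (SE) in Nab2-FLAG and 0.90 ± 0.13 in Atx2-3xFLAG. GlyS, glycogen synthase, had 0.90 ± 0.13 in Nab2-FLAG and 0.99 ± 0.13 in Atx2-3xFLAG. The branching enzyme AGBE had 0.54 ± 0.15 in Nab2-FLAG and 1.36 ± 0.15 in Atx2-3xFLAG. GlyP, the phosphorylase that releases glucose 1-phosphate from glycogen, averaged 1509 ± 113 CPM in Nab2-FLAG Input, 1621 ± 160 CPM in Atx2-3xFLAG Input and 857 ± 165 CPM in control Input (SD, n = 4 each), with log2 differences of 0.82 ± 0.11 in Nab2-FLAG and 0.92 ± 0.11 in Atx2-3xFLAG. Treh, trehalase, which frees glucose from the circulating sugar trehalose, fell in Nab2-FLAG by 0.48 ± 0.11 on the log2 scale, and the trehalose transporter Tret1-1 fell in Atx2-3xFLAG by 0.51 ± 0.14. Among these genes, AGBE alone passed the test between Nab2-FLAG and Atx2-3xFLAG Input, with -0.82 ± 0.14 (edgeR adjusted p = 6.48e-05).

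The enzymes next to the pathway gave 1 gene higher and 1 lower of 4 tested in each tagged Input. Pgm, phosphoglucomutase, which links glucose 1-phosphate to glucose 6-phosphate, was higher in Nab2-FLAG Input (0.39 ± 0.11 SE, log2) and in Atx2-3xFLAG Input (0.40 ± 0.11). Pfrx, the bifunctional enzyme that sets fructose 2,6-bisphosphate, an activator of phosphofructokinase, was lower in both (-0.31 ± 0.11 in Nab2-FLAG and -0.43 ± 0.11 in Atx2-3xFLAG). Ald, aldolase, averaged 1222 ± 106 CPM in Nab2-FLAG Input, 1047 ± 94.1 CPM in Atx2-3xFLAG Input and 1030.0 ± 46.1 CPM in control Input (SD, n = 4 each), with a log2 difference of 0.25 ± 0.10 between Nab2-FLAG and control (edgeR adjusted p = 0.11).

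**Figure D4:**
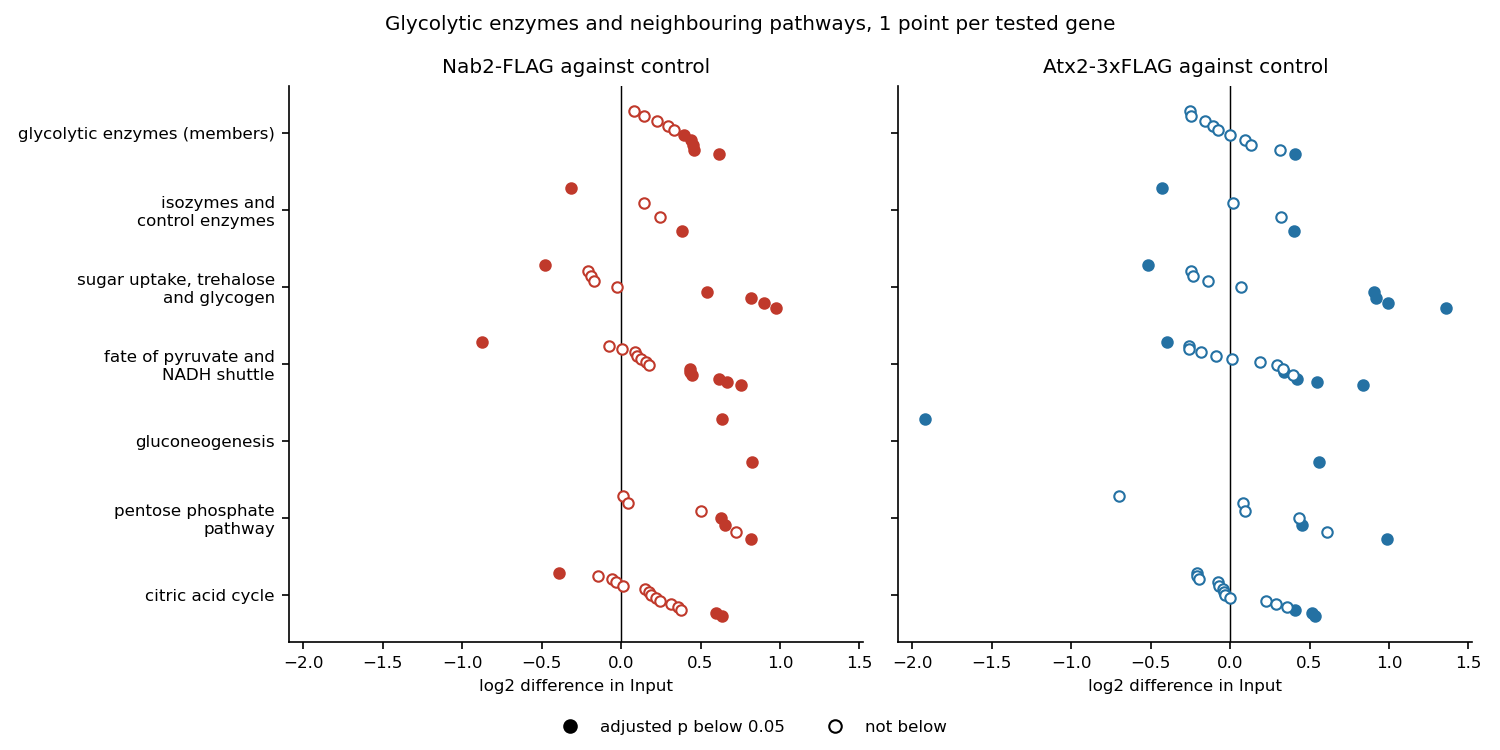
Log2 difference from control in Input for the glycolytic genes and 6 lists of related genes, in Nab2-FLAG (left) and Atx2-3xFLAG (right), with 1 point per tested gene. Filled points have an edgeR adjusted p below 0.05. The cluster of 4 filled points to the right in the row of sugar uptake, trehalose and glycogen is made of UGP, GlyP, GlyS and AGBE in both panels.

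Downstream of pyruvate, 14 genes were tested in Input against control. In Nab2-FLAG 6 rose and 1 fell, and in Atx2-3xFLAG 4 rose and 1 fell. Pdk, the kinase that switches off pyruvate dehydrogenase, was lower in both: it averaged 71.3 ± 3.49 CPM in Nab2-FLAG, 101 ± 6.74 CPM in Atx2-3xFLAG and 132 ± 23.5 CPM in control Input (SD, n = 4 each), with log2 differences of -0.88 ± 0.15 in Nab2-FLAG and -0.40 ± 0.14 in Atx2-3xFLAG. Pdha, a subunit of pyruvate dehydrogenase, was higher in both (Nab2-FLAG 0.43 ± 0.14, Atx2-3xFLAG 0.55 ± 0.13), and Pdhb, its partner subunit, passed in Nab2-FLAG (0.67 ± 0.14). Gpdh1, which reduces dihydroxyacetone phosphate with NADH, was higher in Nab2-FLAG (0.61 ± 0.11) and in Atx2-3xFLAG (0.34 ± 0.11). Men-b, a malic enzyme, which forms pyruvate from malate, averaged 165 ± 26.1 CPM in Nab2-FLAG, 174 ± 30.4 CPM in Atx2-3xFLAG and 97.1 ± 19.2 CPM in control Input (SD, n = 4 each), with log2 differences of 0.75 ± 0.15 in Nab2-FLAG and 0.84 ± 0.15 in Atx2-3xFLAG. The related enzyme gene Men passed in Nab2-FLAG (0.43 ± 0.11), and Got2, an aspartate aminotransferase, passed in Atx2-3xFLAG (0.42 ± 0.13). Gpo1, the mitochondrial partner of Gpdh1 in the glycerophosphate shuttle, was higher in Nab2-FLAG than in control (0.45 ± 0.13) and than in Atx2-3xFLAG (0.71 ± 0.13, edgeR adjusted p = 0.000311).

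Of 2 gluconeogenesis genes tested, fbp, which reverses the phosphofructokinase step, was higher in Nab2-FLAG Input (0.63 ± 0.15 SE, log2) and in Atx2-3xFLAG Input (0.56 ± 0.15). Pepck2, a phosphoenolpyruvate carboxykinase, averaged 38.1 ± 6.39 CPM in Nab2-FLAG, 5.61 ± 1.80 CPM in Atx2-3xFLAG and 21.4 ± 8.44 CPM in control Input (SD, n = 4 each). It was higher than control in Nab2-FLAG (0.82 ± 0.27) and lower in Atx2-3xFLAG (-1.92 ± 0.38), and the tagged genotypes differed by 2.75 ± 0.33 (edgeR adjusted p = 7.04e-08). In the pentose phosphate pathway, 3 of 7 tested genes were higher in Nab2-FLAG Input, Zw (0.82 ± 0.26), Pgd (0.65 ± 0.17) and Taldo (0.63 ± 0.14), and 2 in Atx2-3xFLAG Input, Zw (0.99 ± 0.26) and Taldo (0.45 ± 0.14). Of 15 citric acid cycle genes in Input, 2 rose and 1 fell in Nab2-FLAG, and 3 rose in Atx2-3xFLAG. The citrate synthase gene kdn was higher in both, by 0.64 ± 0.10 in Nab2-FLAG and 0.54 ± 0.10 in Atx2-3xFLAG. SdhC, a subunit of succinate dehydrogenase, was higher in Nab2-FLAG than in control (0.60 ± 0.21) and than in Atx2-3xFLAG (0.79 ± 0.20, edgeR adjusted p = 0.0104), and ScsbetaA, a subunit of succinyl-CoA synthetase, was lower in Nab2-FLAG than in control (-0.39 ± 0.12). In Atx2-3xFLAG the others that rose were l(1)G0156, a subunit of isocitrate dehydrogenase (0.41 ± 0.11), and the fumarase gene Fum1 (0.51 ± 0.14).

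Over the 12 Input libraries, the log2 levels of the glycolytic genes moved together in part. Pearson's r between members had a median of 0.55 over 45 pairs and ran from -0.17 to 0.83. Taken as deviations from the genotype means, the median was 0.17, with a range from -0.53 to 0.79. Against the mean of the other 9, r was highest for Gapdh1 (0.84) and Pglym78 (0.82) and lowest for Hex-A (0.30), the gene that was high in both tagged genotypes. The genes outside the list whose Input levels were most like the mean of the 10 were Fatp (r = 0.95), Ald (0.93), Elal (0.91), CG34196 (0.88) and Ldsdh1 (0.87), each over 12 libraries. CG34196 had 6 to 14 reads in each Nab2-FLAG Input library and 0 in every Atx2-3xFLAG and control Input library, so its r rests on 1 genotype, and its Spearman's rho was 0.54. The other 4 genes had counts in all 12 libraries and rho of 0.84 to 0.92. These points share libraries, scaling and genotype differences, and the correlations are descriptions.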

How the data were processed

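RNA was measured in 24 libraries, 12 RIP and 12 Input. The authors deposited raw counts per gene, 1 table per library. The submitters' processing notes name STAR 2.6.0b-1, featureCounts 1.6.3, DESeq2 2.11.40.2 and the build BDGP6, and the strand setting and annotation are not given in the sources used here. A further table deposited by the authors gives, per the file headers, a ratio of percent input to control and p-values of analysis of variance and Dunnett's comparison. The 24 columns of per-sample values in it and the 24 in a table of normalized counts were not used. All rows of the count tables named a gene.

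The members and the lists of related and marker genes were chosen with earlier results of these data known. All 10 members are named, and of the related genes those that passed the test in a genotype comparison in Input, with Ald given beside them, and the 5 genes with the highest r to the members' mean. Counts were tested with edgeR 4.0.16 in R 4.3.3 (robust quasi-likelihood F test, two-sided, TMM scaling, filterByExpr on the 6 groups, Benjamini-Hochberg adjustment over 6147 genes, threshold 0.05). Genotypes were compared within the 12 Input and within the 12 RIP libraries, with scaling factors and dispersion estimated in that pool. RIP-to-Input differences and associations were fitted on 24 libraries with 1 coefficient per lysate, because RIP and Input of a number share a lysate per the labels. Their deviations from group means correlated over 4219 genes with a median r of 0.10 (-0.02 to 0.30), above 0.1 in 6 of 12 lysates. Replicates of a group differed beyond counting noise (chi-square over its degrees of freedom of 1.43 to 8.2 in 36 pairs). Ratios and correlations used log2 CPM, for which 2 was the prior count. Overlapping genes were read from the RefSeq table of Release 6.

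In counts simulated over 6147 genes for Nab2-FLAG against control Input, 36.4% of genes raised by 0.5 on the log2 scale were called. Of genes raised by 1, 69.7% were called. For the Nab2-FLAG association the shares were 9.09% and 36.4%. The raised genes numbered 33 at each size and were not the glycolytic set. The shares therefore do not give the chance of a call for the glycolytic genes at their levels. The counts were drawn with the dispersions of the RIP-to-Input fit. Its common biological coefficient of variation in edgeR was 0.094, against 0.123 in the Input fit. The simulated spread was thus below that of the Input libraries, and the shares for Input may be too high. Alternatives were RLE factors, library-size scaling, no expression filter, DESeq2 1.42.0, a replicate block (limma 3.58.1 for ratios), unpaired RIP and Input, and leaving out each library.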

Additional observations from a re-analysis of the deposited data

Results flagged for a closer look

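Of 96 groups of 4 values (each gene's level or ratio and their sum), 7 held a value set far apart from the other 3, where chance gives 1 in 20, or 4.8. Pgi was at 414.9 CPM in control RIP replicate 4, against 265 to 286 CPM in the other 3, and at 267.5 CPM in control Input replicate 2, against 327 to 333 CPM. Tpi was at 289.4 CPM in Nab2-FLAG RIP replicate 3, the shallowest library of that group, against 216 to 224 CPM. For Tpi the log2 ratio of RIP to Input came to -0.44 in Nab2-FLAG replicate 2, against -0.11 to -0.08. That of Gapdh1 came to 0.69 in control replicate 4, against -0.05 to 0.03. PyK was at 680.9 CPM in Nab2-FLAG Input replicate 3, against 629 to 634 CPM. The sum over the 10 genes was 3393 CPM in Nab2-FLAG RIP replicate 2, against 3501 to 3522 CPM.

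The effects of the tagged genotypes relative to control differed from each other, by edgeR's test of the difference itself, for Tpi (0.39 on the log2 scale), Gapdh1 (0.48), Gapdh2 (0.45) and Eno (0.47) in Input and for Gapdh2 (0.37) and Eno (0.37) in RIP, each higher in Nab2-FLAG than in Atx2-3xFLAG.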

How the results depend on the processing

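Library-size scaling, which leaves out the TMM factors, moved the calls most. Under it the RIP-against-Input differences of Hex-A (0.33 in Nab2-FLAG, 0.34 in control), Pgi (0.018 in Nab2-FLAG, 0.33 in Atx2-3xFLAG, 0.39 in control), Gapdh2 (0.049 in Atx2-3xFLAG), Eno (0.31 in Atx2-3xFLAG) and PyK (0.28 in Nab2-FLAG, 0.35 in Atx2-3xFLAG) changed sign. Only sign changes with a call under either scaling are listed. In Nab2-FLAG the median of the 10 genes moved from -0.18 to 0.20. The 2 calls there, both lower with TMM, became 2 higher, Hex-A and PyK. It called 8 of the 10 genes instead of 5 in Nab2-FLAG against control Input, 3 instead of 1 in Atx2-3xFLAG against control Input, 0 instead of 2 in Nab2-FLAG against Atx2-3xFLAG RIP, and 6 and 9 instead of 1 in RIP against Input of Atx2-3xFLAG and control. The summed level moved to 4091 CPM in Nab2-FLAG RIP, 3729 CPM in Atx2-3xFLAG RIP, 3652 CPM in Nab2-FLAG Input and 2603 CPM in control Input. DESeq2 called 3 in Nab2-FLAG against control Input and 1 in Nab2-FLAG against control RIP. It called 1 in Nab2-FLAG against Atx2-3xFLAG RIP and 0 in RIP against Input of Atx2-3xFLAG. Over all genes DESeq2 called fewer as well. In the same order it called 330 higher and 200 lower, 509 and 368, 91 and 72, and 110 and 178. With edgeR these were 452 and 298, 656 and 571, 150 and 117, and 246 and 231. RLE factors called 1 in Nab2-FLAG against Atx2-3xFLAG RIP (138 higher and 120 lower over all genes). No expression filter called 2 in Atx2-3xFLAG against control Input (596 and 387 over all genes). An alternative chosen after seeing the data left out the lysates of the shallowest RIP libraries. The calls were then 1 in Nab2-FLAG against control RIP (663 higher and 491 lower over all genes). They were 1 in Nab2-FLAG against Atx2-3xFLAG RIP (143 and 106) and 0 in RIP against Input of Nab2-FLAG (154 and 179). The cause of these changes was not tested.

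The labels name nothing that same-numbered libraries of different genotypes share, so the reported genotype comparisons had no block for the number. Their deviations correlated above 0.1 in 8 of 24 pairs (median 0.04), but 25 of 48 comparisons of a library with the 4 of another genotype were highest at its own number, where 12 would be expected if numbers meant nothing; whether numbers mark shared handling is not known. With the replicate block, the calls were 2 in Atx2-3xFLAG against control Input, 6 in Nab2-FLAG against control Input and 6 in Nab2-FLAG against Atx2-3xFLAG Input. Over all genes the block called, in that order, 633 higher and 543 lower, 505 and 365, and 243 and 170. It brought past the threshold Gapdh2 in Nab2-FLAG against control Input (adjusted p = 0.0252), Pgi in Atx2-3xFLAG against control Input (0.0258), Pfk (0.0329) and Pgk (0.0227) in Nab2-FLAG against Atx2-3xFLAG Input, and Pgk in Atx2-3xFLAG against control RIP (0.0392). On log2 ratios with the replicate block RIP against Input gave 0 calls in each genotype, and with RIP and Input unpaired it gave 1 in Nab2-FLAG and 0 in Atx2-3xFLAG.

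Leaving out 1 library at a time, calls ran from 2 to 5 (Nab2-FLAG against control Input), 0 to 2 (Atx2-3xFLAG against control Input), 2 to 4 (Nab2-FLAG against Atx2-3xFLAG Input), 1 to 3 (Nab2-FLAG against control RIP), 2 to 3 (Atx2-3xFLAG against control RIP), 0 to 2 (Nab2-FLAG against Atx2-3xFLAG RIP), and, for RIP against Input, 0 to 2 in Nab2-FLAG, 0 to 1 in Atx2-3xFLAG and 1 in control. Calls over all genes moved as well. In Nab2-FLAG against control Input they were 387 higher and 252 lower without Nab2-FLAG replicate 3, against 452 and 298 with all libraries. Without control replicate 4 they were 481 and 333. The associations gave 0 calls among the 10 genes in every alternative run. Pgi and Gapdh1 in Nab2-FLAG against control Input passed in every alternative run.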
